A study of Ambystoma mexicanum with 18 samples.

Results

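Collagen chains were followed in sorted cells of the axolotl limb blastema, the mound of progenitor cells that rebuilds an amputated limb. A gene model was taken as a collagen chain by its deposited symbol and its level. The symbol, without regard to case, had the form COL, a type number, A and a chain number, with or without the ending .L or .S. The level was 0.5 CPM or more in at least 3 of 18 libraries, scaled for this rule to library size alone. Other CPM values, except where stated, are counts scaled to library size and TMM factor. These rules gave 36 gene models of 32 symbols, out of 67 rows whose symbol had that form and out of 25377 genes tested in all. They were grouped as 11 fibrillar chains, 6 chains of the basement membrane zone, 8 FACIT chains (collagens with interrupted triple helices that sit on fibrils) and 11 chains of other types.

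All 18 libraries came from cells of the Hoxa13:Cherry transgenic line, in which the distal marker Hoxa13 drives a red reporter, and all were sorted as mCherry+ cells after electroporation of the blastema. Tig1 cells carried a plasmid with wild-type Tig1 (a cell surface protein also known as RARRES1), Tig1P155A cells carried a form with a mutation in its latexin domain, and both were sorted as GFP+. Control cells were mCherry+ cells without detectable GFP from electroporated blastemas, and no library came from cells given GFP alone. Each kind of cell was collected at 3 and at 8 dpe (days post electroporation), with 3 libraries of 300 cells in each of the 6 groups, from 12 pooled blastemas per condition. Libraries are biological replicates by the study's account, without a statement on separate pools for each, so p-values measure the spread between these libraries, which may be partly technical.

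Collagens are trimers of pro-alpha chains that are hydroxylated, folded and trimmed before they are laid down and crosslinked outside the cell. Fibrillar chains form the banded fibrils of dermis, tendon and cartilage, basement membrane chains form sheets under epithelia and around vessels, and FACIT chains decorate fibrils. In the blastema, fibroblast-like connective tissue cells are the main makers of fibrillar collagen, and cartilage collagens appear as the new skeleton condenses. The rows name gene models only, so no exon, UTR or intron can be given, and because exon lengths are not in the table, levels are compared between libraries and not between genes.

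The libraries held between 9732514 and 23086124 counts, of which mitochondrial genes took 23.6% to 45.3% in control and 18.4% to 65.4% in overexpressing libraries. All 4 libraries with a share over 50% and all 3 with a TMM factor under 0.7 were overexpressing, and without those 3, 22 chains were called lower and 0 higher on average over the comparisons with control (called at an adjusted p under 0.05 in edgeR's test). Where a gene had no count, a level of up to 0.0872 to 0.455 CPM (3 counts, by library) was still allowed by counting error. The gene that the study's files pair with Tig1, LOC115479139, was at 2.85 to 8.81 CPM in control cells and at 151 to 514 CPM in the 12 overexpressing libraries. HoxA13, the gene of the sort reporter, was at 77.1 to 116 CPM in control cells but at no more than 40.4 CPM in overexpressing cells. All 13 tested genes of a myeloid list, such as C1QB, CD68 and AIF1, were called higher on average (21.4% of all genes were called higher and 18.7% lower), with a summed level of 2.27 to 87.9 CPM in control and 3567 to 7652 CPM in overexpressing libraries, and none of the 13 was at 0 in all control libraries. All 12 tested connective tissue genes that are no collagens, such as PDGFRA and POSTN, were called lower, with sums over 15 matched genes of 4265 to 9351 CPM in control against 359 to 4237 CPM in overexpressing libraries. Calls in other marker lists included 1 of 8 tested endothelial genes higher (PECAM1), 2 of 7 muscle genes lower (PAX7 and MYOG), 3 of 7 pericyte and smooth muscle genes lower and 2 of 4 erythroid genes lower, where the endothelial share is below that of all genes. The 2 erythroid genes, HBA1 and TAL1, were barely detected, with means of 0.22 and 0.18 CPM over the 18 libraries. TAL1 was at 2.86 CPM in control replicate 1 of 3 dpe and at 0 to 0.197 CPM in the other control libraries. At 8 dpe the median log2 fold change of the 7 muscle genes was 4.02 with Tig1 and 3.87 with Tig1P155A. With each form 1 of them was called higher (10.6% of all genes), and with Tig1P155A 1 was called lower (1.72% of all genes). The muscle sum reached 759.6 CPM in Tig1 replicate 3 and 760.6 CPM in Tig1P155A replicate 1 against at most 35.4 CPM in control. In such bulk samples fewer cells of a type and less RNA per cell cannot be told apart, and the part of these markers in the collagen result was not tested.

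Libraries that stood apart in their collagens were Tig1P155A replicate 3 at 3 dpe and Tig1 replicate 1 at 8 dpe. Each was picked after its values were seen and held the highest collagen sum of its group, so leaving them out favours lower calls. The first held several cartilage genes, though not all of those listed, at a high level. It held 455 CPM of ACAN (aggrecan) and 537 CPM of MATN1 against at most 1.82 and 0 CPM in replicates 1 and 2. The second held 734 CPM of ACAN, 1200 CPM of the basal keratin KRT5 and 175 CPM of EPCAM, where replicates 2 and 3 held at most 175, 3.74 and 39.3 CPM. Its ACAN lay within the control range of 8 dpe (188 to 1200 CPM). In control libraries of 8 dpe KRT5 reached 253 CPM and EPCAM 18.9 CPM, and Tig1P155A replicate 1 of 8 dpe held 132 CPM of EPCAM. The endothelial marker CDH5 stood at 23.5 CPM in Tig1 replicate 1 of 8 dpe, against at most 2.53 CPM in the other 17 libraries. Control replicate 1 at 3 dpe was the lowest of its group in 31 of the 36 chains.

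Collagen transcripts were lower in overexpressing cells. The 36 chains together took 0.622% to 2.50% of the non-mitochondrial counts in control cells at 3 dpe and 2.53% to 4.69% at 8 dpe. They took 0.152% to 0.253% with Tig1 and 0.122% to 0.706% with Tig1P155A at 3 dpe, and 0.471% to 2.56% and 0.565% to 0.771% at 8 dpe. On the TMM scale, the summed level of the chains at 3 dpe was 8556 ± 4212 CPM (SD, n = 3) in control, 1534 ± 382 CPM in Tig1 and 2603 ± 2369 CPM in Tig1P155A cells. At 8 dpe the sums were 17400 ± 5180, 8030 ± 7200 and 4268 ± 394 CPM. Without Tig1P155A replicate 3 the mean sum of Tig1P155A cells at 3 dpe was 1248 CPM, and without Tig1 replicate 1 that of Tig1 cells at 8 dpe was 3890 CPM. At 3 dpe Tig1 cells lay below every control library and Tig1P155A replicate 3, at 5312 CPM, lay above the lowest control, at 3807 CPM. At 8 dpe Tig1P155A cells lay below every control library, and Tig1 replicate 1, at 16310 CPM, lay within the control range.

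The mean sum of each of the 4 types was below control in every comparison, with ratios of the means between 0.114 and 0.488. The fibrillar chains had mean sums of 6695 CPM in control cells, 1177 CPM in Tig1 cells and 2233 CPM in Tig1P155A cells at 3 dpe, and of 12730, 6210 and 2861 CPM at 8 dpe. Without the libraries that stood apart the fibrillar means were 978 CPM in Tig1P155A cells at 3 dpe and 2755 CPM in Tig1 cells at 8 dpe. Fibrillar chains held between 72.3% and 80.0% of the collagen sum in control libraries and between 63.0% and 89.3% in overexpressing libraries, where the ends were Tig1P155A libraries of 8 and 3 dpe. The basement membrane sum at 3 dpe was 93.2 ± 42.6 CPM in control, 18.3 ± 6.85 CPM in Tig1 and 10.7 ± 2.13 CPM in Tig1P155A cells, with no overlap of either form with control. At 8 dpe it was 253 ± 70.2, 121 ± 106 and 75.9 ± 37.5 CPM, and the highest Tig1 library, at 243 CPM, lay within the control range of 201 to 333 CPM. The sum of the other types was 1184 ± 437, 218 ± 73.5 and 147 ± 59.3 CPM at 3 dpe and 2778 ± 681, 955 ± 416 and 951 ± 130 CPM at 8 dpe, with no overlap at either time. The FACIT sum was 585 ± 316, 121 ± 17.1 and 213 ± 229 CPM at 3 dpe and 1636 ± 563, 744 ± 682 and 379 ± 54.1 CPM at 8 dpe. It overlapped with control for Tig1P155A at 3 dpe (up to 475.5 CPM, control from 230 CPM) and for Tig1 at 8 dpe (up to 1520 CPM, control from 1072 CPM).

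**Figure D1:**
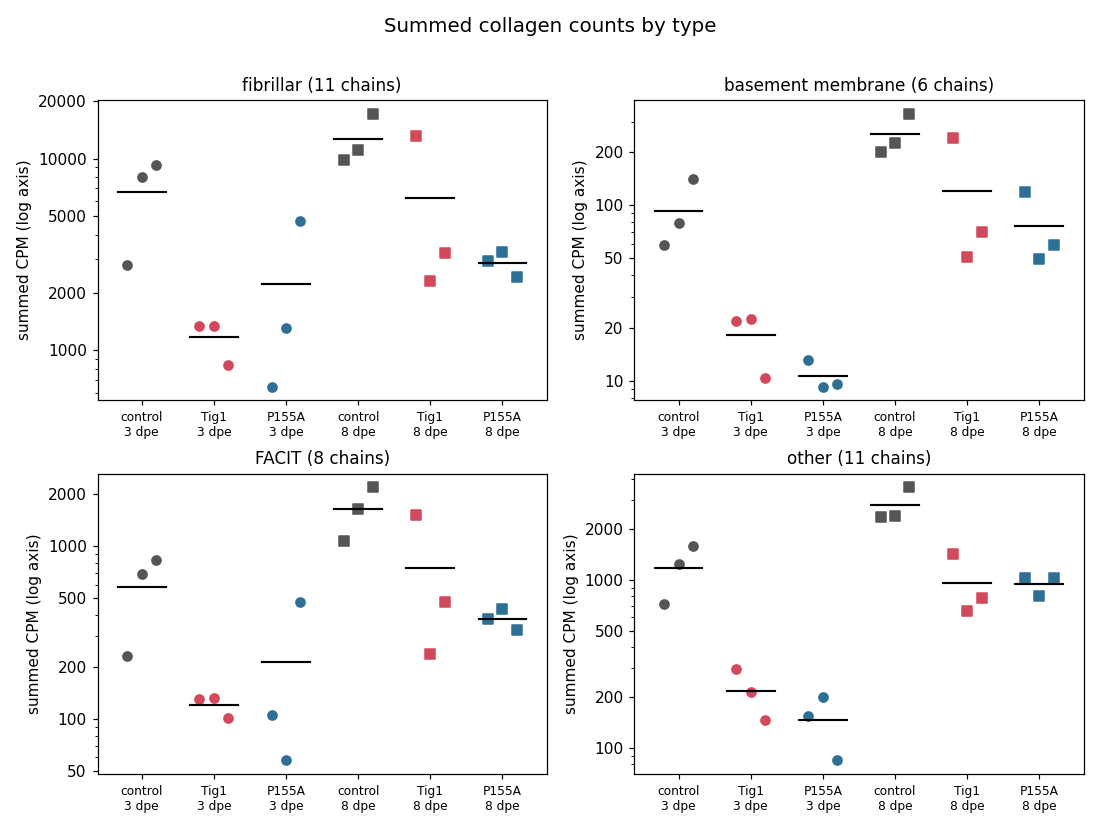
Summed CPM (log axis) of the chains of each type in each of the 18 libraries, with black lines at the means of the 3 libraries of a group. Control libraries (grey) lie above both Tig1 forms for basement membrane chains at 3 dpe and for other types at both times, while Tig1P155A replicate 3 at 3 dpe (4743 CPM) and Tig1 replicate 1 at 8 dpe (13120 CPM) lie within the control range for fibrillar chains.

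For single chains edgeR's quasi-likelihood test was run over all genes, and a chain was called at a Benjamini-Hochberg adjusted p under 0.05. On average over the 4 comparisons with control (each Tig1 form at each time), 24 of 36 chains were called lower and 1 higher, where 18.7% of all genes were called lower and 21.4% higher. Among genes of at least 4 CPM on average, 25.4% were called lower and 31.4% higher. Without both libraries that stood apart, a choice made after their values were seen that favours lower calls, 27 chains were called lower and 1 higher. The median average log2 fold change was −1.92 over the chains and 0.05 over all genes. Lower calls covered 8 of 11 fibrillar, 4 of 6 basement membrane, 3 of 8 FACIT and 9 of 11 other chains. In 10 of 36 chains all 12 overexpressing libraries lay below all controls of their time, where this held for 6.05% of all genes, and 0 chains lay above in all 12 (10.9% of all genes).

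With library size alone the median log2 fold change of all genes of at least 4 CPM moved from 0.04 to −0.55, with 27 chains called lower and 0 higher. With mitochondrial genes left out it moved to −0.17, with 24 chains lower and 1 higher. The median of the chains was −2.58 and −2.13 under these scalings. Of 25 chains with at least 4 CPM on average, 19 were called lower on average, and all 19 kept that call under each of 27 alternatives. The 4 comparisons share control libraries within a time, so their counts are not independent of each other.

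At 3 dpe, 18 of 36 chains were called lower and 0 higher with Tig1 (8.47% and 15.5% of all genes), and 18 lower and 0 higher with Tig1P155A (11.5% and 15.2%). At 8 dpe, 4 were called lower and 0 higher with Tig1 (1.29% and 10.6% of all genes), and 7 lower and 0 higher with Tig1P155A (1.72% and 10.6%). Median log2 fold changes of the chains were −2.35 and −2.73 at 3 dpe and −0.96 and −1.74 at 8 dpe. The count for Tig1 at 8 dpe rested on single libraries. It was 0 without control replicate 3 or without Tig1 replicate 2 of 8 dpe, 1 without Tig1 replicate 3, and 7 without Tig1 replicate 1 of either time. The count for Tig1P155A at 8 dpe was 4 without control replicate 3, without Tig1P155A replicate 2 or without Tig1P155A replicate 3 of that time. Without both libraries that stood apart, which were picked by their values, the counts at 8 dpe were 11 for Tig1 and 13 for Tig1P155A, all lower. Those at 3 dpe were 22 and 20, and the shares of all genes without these libraries are not given here.

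**Figure D2:**
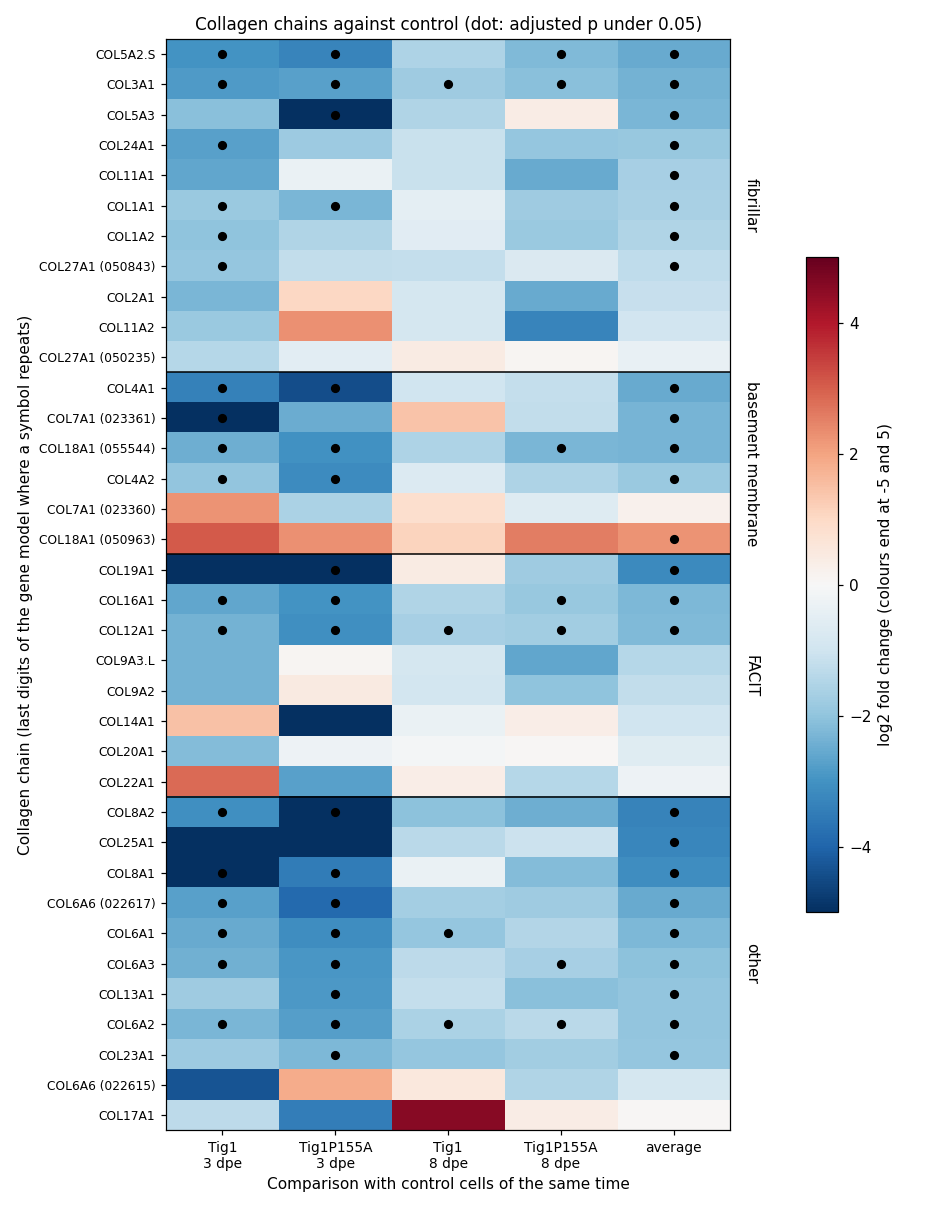
Log2 fold changes of the 36 chains against control cells of the same time, in 4 comparisons and on average, ordered by type, with dots where the adjusted p was under 0.05. Blue cells (lower than control) fill most rows at 3 dpe, and the row called higher on average is a short COL18A1 gene model at 2.25.

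COL3A1 of type III and COL5A2.S of type V collagen were lower in all 12 overexpressing libraries. COL3A1 (AMEX60DD055165, chromosome 9q from 219171795 to 219291632) encodes the chain of type III collagen, which forms thin fibrils in soft and healing tissue. Its levels at 3 dpe were 1213, 4381 and 4230 CPM in the control libraries, 627, 405 and 338 CPM with Tig1 and 254, 691 and 559 CPM with Tig1P155A. At 8 dpe it stood at 3488, 3281 and 4173 CPM in the control, 1699, 871 and 664 CPM in the Tig1 and 790.5, 1135 and 646 CPM in the Tig1P155A libraries. Overexpressing and control libraries did not overlap at either time, with the narrowest gap between 1213 CPM in control replicate 1 and 691 CPM in Tig1P155A replicate 2 at 3 dpe. Averaged over the comparisons its log2 change was −2.35 (SE 0.27, adjusted p = 1.23e-06), and each single comparison was called. With Tig1 at 8 dpe the change of −1.76 was not called without control replicate 3 (adjusted p = 0.0576), Tig1 replicate 2 (0.0849) or Tig1 replicate 3 (0.0955) of that time.

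COL5A2.S (AMEX60DD055164, chromosome 9q from 218747391 to 219105336), a chain of type V collagen, which starts fibrils of type I collagen, lies 66458 bp from COL3A1 on the opposite strand. It was at 384, 950.5 and 1126 CPM in control cells at 3 dpe, 104, 133 and 69.7 CPM with Tig1 and 85.5, 134 and 30.1 CPM with Tig1P155A. By 8 dpe the values were 959, 849 and 1295 CPM in the control, 625, 234 and 209.7 CPM in the Tig1 and 179, 242 and 244 CPM in the Tig1P155A libraries. All 12 overexpressing libraries lay below the controls of their time, and Tig1P155A replicate 3 at 3 dpe, which stood high in cartilage genes, was the lowest of all. The average over the comparisons was −2.52 (SE 0.29, adjusted p = 1.44e-06), and it was called in every single comparison but Tig1 at 8 dpe (−1.54, adjusted p = 0.0564). COL5A1, the usual partner chain, had 12 counts in all and did not reach the level rule.

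Type I collagen, the bulk of bone and skin matrix, was lower on average as well, with overlaps between groups. COL1A1 (AMEX60DD009937, chromosome 13q from 239179656 to 239211499) was at 391, 905 and 1300 CPM in control cells at 3 dpe, 190.4, 398 and 128 CPM with Tig1 and 105, 197 and 224 CPM with Tig1P155A. The libraries of 8 dpe held 1072, 1246 and 2692 CPM in the control, 2579, 318 and 653 CPM in the Tig1 and 657, 406 and 404 CPM in the Tig1P155A libraries, with Tig1 replicate 1 within the control range. At 3 dpe Tig1 replicate 2 lay just above the lowest control, and no Tig1P155A library did. Its partner COL1A2 (AMEX60DD022398, chromosome 2p from 1116411155 to 1116466674) was at 482, 948 and 1352 CPM in the control, 236, 296 and 157 CPM in the Tig1 and 106, 208 and 654 CPM in the Tig1P155A libraries of 3 dpe. It stood at 1581, 1433 and 2694 CPM in the control, 2786, 386 and 642 CPM in the Tig1 and 553, 465 and 561 CPM in the Tig1P155A libraries of 8 dpe. Here Tig1P155A replicate 3 at 3 dpe lay inside the control range and Tig1 replicate 1 at 8 dpe above it. Average log2 fold changes were −1.61 (SE 0.37, adjusted p = 0.00183) for COL1A1 and −1.49 (SE 0.38, adjusted p = 0.0039) for COL1A2.

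Both chains of type I collagen were called with Tig1 at 3 dpe (−1.86 and −2.01, adjusted p = 0.0426 and 0.0333). With Tig1P155A at 3 dpe COL1A1 was called (−2.30, adjusted p = 0.0131) and COL1A2 was at −1.52 (adjusted p = 0.0926), but at −2.56 (adjusted p = 0.0126) without Tig1P155A replicate 3. That library was picked after its values were seen, so leaving it out favours a lower call. Neither chain of type I collagen was called at 8 dpe. The calls with Tig1 at 3 dpe were lost for COL1A1 without control replicate 2 (adjusted p = 0.0672) or 3 (0.117) and without Tig1 replicate 1 (0.0633) or 3 (0.15). They were lost for COL1A2 without control replicate 2 (0.0527) or 3 (0.0888) and without Tig1 replicate 2 (0.0589) or 3 (0.117). The call of COL1A1 with Tig1P155A at 3 dpe was lost without Tig1P155A replicate 1 of that time (0.0641).

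**Figure D3:**
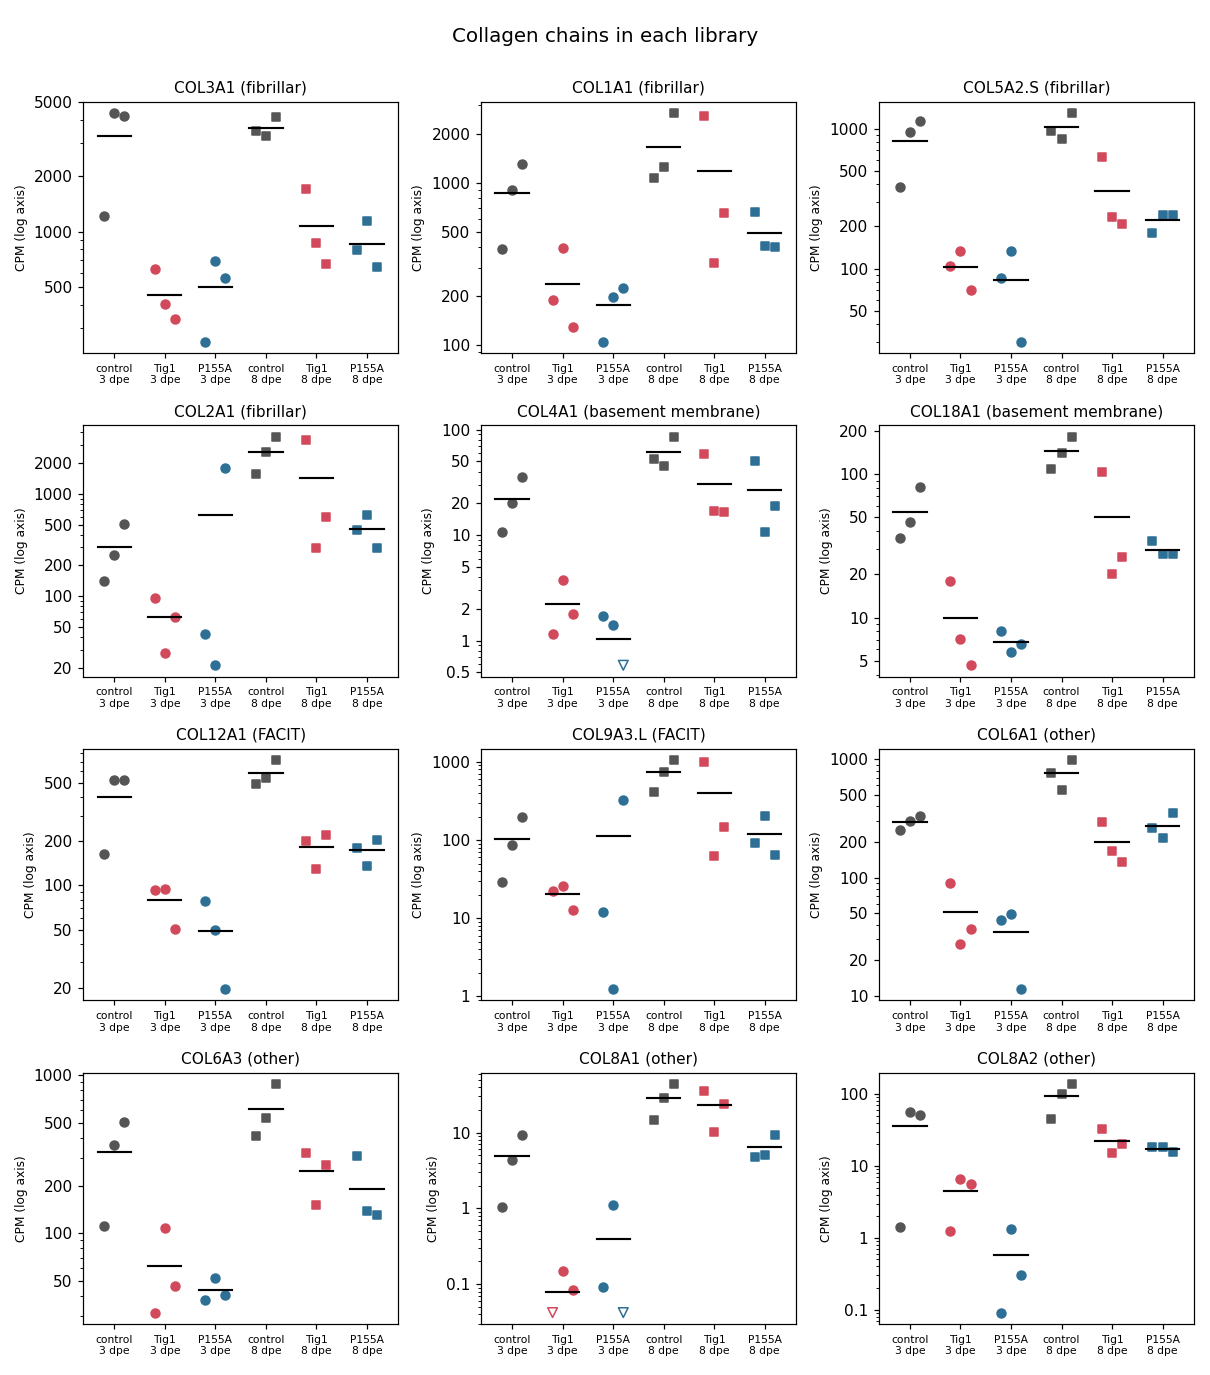
CPM (log axis) of 12 chains in each library, with black lines at group means and open triangles, set at the bottom, for libraries with no count. COL3A1, COL5A2.S, COL18A1, COL12A1, COL6A1 and COL6A3 lie below control in all 12 overexpressing libraries, whereas COL2A1 and COL9A3.L stand high in Tig1P155A replicate 3 at 3 dpe and Tig1 replicate 1 at 8 dpe.

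For the collagens of cartilage the result depended on the libraries that stood apart, which were picked after their values were seen. COL2A1 (AMEX60DD029426, chromosome 3q from 375692686 to 375765573), the chain of type II collagen, the main fibril of cartilage, was at 140.4, 252 and 511 CPM in control cells at 3 dpe and 96.2, 28.1 and 63.1 CPM with Tig1. With Tig1P155A it was at 42.8, 21.1 and 1790 CPM. Values at 8 dpe were 1577, 2569 and 3623 CPM in control, 3360, 293 and 593 CPM in Tig1 and 446, 627 and 296 CPM in Tig1P155A cells. Thus 10 of 12 overexpressing libraries lay below every control of their time. Over the 4 comparisons its log2 change averaged −1.15 (SE 0.65, adjusted p = 0.17) and was not called. Without Tig1P155A replicate 3 of 3 dpe it was −2.22 (adjusted p = 0.000489), and without Tig1 replicate 1 of 8 dpe −1.57 (adjusted p = 0.0492). With Tig1P155A at 3 dpe it was 1.04 (adjusted p = 0.523) with all libraries and −3.24 (adjusted p = 0.0148) without replicate 3.

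COL11A1 (AMEX60DD018809, chromosome 1q from 872245229 to 872627708) and COL11A2 (AMEX60DD010831, chromosome 13q from 461611624 to 461775099) encode chains of type XI collagen, which lies inside cartilage fibrils. COL11A1 was at 171, 529.5 and 629 CPM in control cells at 3 dpe, 85.7, 73.1 and 58.4 CPM with Tig1 and 40.2, 51.5 and 956 CPM with Tig1P155A. It stood at 953, 1255 and 1847 CPM in the control, 1393, 144 and 320.5 CPM in the Tig1 and 215, 299 and 199 CPM in the Tig1P155A libraries of 8 dpe. Tig1P155A replicate 3 at 3 dpe lay above every control and Tig1 replicate 1 at 8 dpe within the control range, and the other 10 lay below. It was called on average, at −1.65 (SE 0.53, adjusted p = 0.0184), and was at −2.73 (adjusted p = 3.42e-07) without both libraries that stood apart. With Tig1P155A at 3 dpe it was at −0.34 (adjusted p = 0.835), and at −3.27 (adjusted p = 0.00463) without replicate 3. COL11A2 was at 2.41, 28.1 and 76.9 CPM in control cells at 3 dpe, 4.2, 4.7 and 20.5 CPM with Tig1 and 0.091, 1.3 and 523 CPM with Tig1P155A. At 8 dpe it was at 180.3, 451 and 760.2 CPM in the control, 621, 35.9 and 93.9 CPM in the Tig1 and 39.4, 66.3 and 36 CPM in the Tig1P155A libraries. Its 3 dpe control libraries spanned a wide range, and all 3 Tig1 libraries lay within it. Its log2 fold change averaged −0.94 (SE 0.92, adjusted p = 0.46), and −2.90 (adjusted p = 0.00171) without Tig1P155A replicate 3 of 3 dpe. The libraries left out for these chains were picked after their values were seen, which favours lower calls.

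Most cartilage genes that are no collagens were high in the same libraries next to the other replicates of their groups. In Tig1P155A replicate 3 at 3 dpe SOX5, SOX6 and COMP were not. They were at 1.28, 1.28 and 0.663 CPM there and at 1.87, 3.5 and 0.672 CPM in replicate 2, below every control of 3 dpe. In Tig1 replicate 1 at 8 dpe SOX6 was at 41.3 CPM, against 42 CPM in replicate 3. Of 9 tested genes of that list, 4 were called lower on average (SOX5, SOX9, MATN4 and COMP) and 0 higher. Of all genes, 18.7% were called lower and 21.4% higher. The median average log2 fold change was −1.77 over the list and 0.05 over all genes. The summed level of the 10 matched genes ranged from 189 to 403 CPM in control cells at 3 dpe, 57.1 to 103 CPM with Tig1 and 8.06 to 1547 CPM with Tig1P155A. It ranged from 1297 to 3682, 171 to 2541 and 194 to 384 CPM at 8 dpe. The part of a differing share of cartilage cells in these results was not tested.

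Of the remaining fibrillar chains of at least 4 CPM on average, both were called lower. COL24A1 (AMEX60DD019005, chromosome 1q from 974757019 to 975766698), a minor fibrillar chain, was at 9.31, 16.3 and 39.9 CPM in control cells at 3 dpe, 3.16, 6.52 and 0.676 CPM with Tig1 and 9.74, 2.21 and 6.89 CPM with Tig1P155A. By 8 dpe the values were 40.1, 59.8 and 88.3 CPM in the control, 49.9, 10.3 and 27.2 CPM in the Tig1 and 13.6, 19.8 and 15.3 CPM in the Tig1P155A libraries, and the log2 change averaged −1.89 (SE 0.40, adjusted p = 0.000986). Tig1P155A replicate 1 at 3 dpe and Tig1 replicate 1 at 8 dpe reached into the control range, and the other 10 overexpressing libraries did not. The call with Tig1 at 3 dpe (−2.70, adjusted p = 0.0117) was lost without control replicate 3 of that time (adjusted p = 0.0554). COL27A1 (AMEX60DD050843), the fibrillar chain of type XXVII collagen found in cartilage, had means of 4.32 ± 1.99 CPM in control, 1.11 ± 0.408 CPM in Tig1 and 1.88 ± 1.71 CPM in Tig1P155A cells at 3 dpe. At 8 dpe they were 12 ± 2.1, 5.31 ± 0.738 and 7.33 ± 3.44 CPM, and the log2 change averaged −1.26 (SE 0.35, adjusted p = 0.00861).

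Chains of type IV collagen, the sheet-forming collagen of every basement membrane, were lower in all 6 overexpressing libraries at 3 dpe. COL4A1 (AMEX60DD047873, chromosome 7p from 619391566 to 619865348) was at 10.6, 20.1 and 35.6 CPM in the control, 1.17, 3.79 and 1.78 CPM in the Tig1 and 1.73, 1.39 and 0 CPM in the Tig1P155A libraries of 3 dpe. The libraries of 8 dpe held 52.3, 45.2 and 85.7 CPM in the control, 58.2, 16.9 and 16.5 CPM in the Tig1 and 50.8, 10.7 and 18.8 CPM in the Tig1P155A libraries. COL4A2 (AMEX60DD047874, chromosome 7p from 619864177 to 620595712) was at 11.7, 12.4 and 22.4 CPM in the control, 2.51, 8.5 and 1.1 CPM in the Tig1 and 1.37, 1.39 and 2.45 CPM in the Tig1P155A libraries of 3 dpe. It stood at 34.7, 33.3 and 60.4 CPM in the control, 45.5, 12.1 and 23.2 CPM in the Tig1 and 25.6, 7.26 and 11.3 CPM in the Tig1P155A libraries of 8 dpe. At 3 dpe neither chain overlapped between control and overexpressing cells, and at 8 dpe Tig1 replicate 1 overlapped for both and Tig1P155A replicate 1 for COL4A1. Shares of all genes without overlap at a single time are not given, here or below, so such statements have no background beside them. Average log2 fold changes were −2.50 (SE 0.47, adjusted p = 0.000313) and −1.84 (SE 0.37, adjusted p = 0.000565). Both were called with each form at 3 dpe, with COL4A1 at −3.37 and −4.45 and COL4A2 at −1.99 and −3.15, and neither was called at 8 dpe. The models lie head to head on opposite strands of chromosome 7p and overlap by 1172 bp, and because the strandedness of the counting is not stated, reads from the overlap cannot be told apart.

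COL18A1 (AMEX60DD055544, chromosome 9q from 393956784 to 394413005) encodes type XVIII collagen, a proteoglycan of vessel and epithelial basement membranes whose end is released as endostatin. It was at 35.8, 46.3 and 81.4 CPM in control cells at 3 dpe, 18.1, 7.13 and 4.65 CPM with Tig1 and 8.01, 5.76 and 6.58 CPM with Tig1P155A. Values at 8 dpe were 109, 141 and 183 CPM in the control, 103, 20.2 and 26.3 CPM in the Tig1 and 33.9, 27.8 and 27.8 CPM in the Tig1P155A libraries. All 12 overexpressing libraries lay below control, and the log2 change averaged −2.31 (SE 0.31, adjusted p = 9.4e-06). In the single comparisons it was called except with Tig1 at 8 dpe (−1.53, adjusted p = 0.0786). A second model with this symbol, AMEX60DD050963 on chromosome 8p with a span of 2736 bp, was the 1 chain called higher on average, at 2.25 (SE 0.75, adjusted p = 0.0234), and is named after its values were seen. It stood at 0.0872 to 0.549 CPM in control and 0.303 to 6.19 CPM in overexpressing libraries, and it lost the call when control replicate 2 of 3 dpe or control replicate 1 of 8 dpe was left out. Whether so short a model encodes a collagen was not tested.

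Among FACIT chains, COL12A1 and COL16A1 were lower in all 12 overexpressing libraries. COL12A1 (AMEX60DD033627, chromosome 4p from 642948585 to 643245633), the chain of type XII collagen, which coats type I fibrils in tendon and fascia, was at 164, 523 and 527 CPM in control cells at 3 dpe, 92.8, 94.8 and 50.8 CPM with Tig1 and 78, 49.3 and 19.6 CPM with Tig1P155A. At 8 dpe it was at 489, 543 and 715 CPM in the control, 202, 129 and 221 CPM in the Tig1 and 182, 136 and 206 CPM in the Tig1P155A libraries. Averaged over the comparisons its log2 change was −2.20 (SE 0.27, adjusted p = 2.33e-06), and it was called in each of the 4 comparisons. At 8 dpe the calls were lost without control replicate 3 (adjusted p = 0.0737 with Tig1 and 0.0555 with Tig1P155A), without Tig1 replicate 2 (0.0852 with Tig1) and without Tig1P155A replicate 2 (0.078 with Tig1P155A). COL16A1 (AMEX60DD006034, chromosome 11q from 1033289768 to 1034380438), the chain of type XVI collagen, was at 28.8, 36.7 and 43.3 CPM in the control, 8.56, 1.82 and 7.35 CPM in the Tig1 and 7.19, 2.59 and 4.08 CPM in the Tig1P155A libraries of 3 dpe. It stood at 64, 61.9 and 85.1 CPM in the control, 40.1, 19.7 and 13.7 CPM in the Tig1 and 21.3, 22.1 and 12.7 CPM in the Tig1P155A libraries of 8 dpe. The average over the comparisons was −2.25 (SE 0.28, adjusted p = 3.94e-06). With Tig1P155A at 8 dpe its call (−1.91, adjusted p = 0.0132) was lost without Tig1P155A replicate 3 (0.0794). With Tig1 at 8 dpe it was not called (−1.52, adjusted p = 0.0507).

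The FACIT chains of cartilage were high in the same libraries as COL2A1. COL9A2 (AMEX60DD006010, chromosome 11q from 1027857294 to 1028030956) and COL9A3.L (AMEX60DD026961, chromosome 3p from 209932145 to 210255171) encode chains of type IX collagen, which sits on type II fibrils. COL9A3.L was at 29, 86.7 and 196 CPM in control cells at 3 dpe, 22.1, 25.5 and 12.9 CPM with Tig1 and 11.9, 1.25 and 323 CPM with Tig1P155A. It stood at 414, 740 and 1046 CPM in the control, 985, 62.7 and 145 CPM in the Tig1 and 91, 205 and 65.1 CPM in the Tig1P155A libraries of 8 dpe. COL9A2 was at 5.36, 30.3 and 61 CPM in the control, 4.93, 6.83 and 7.18 CPM in the Tig1 and 1.91, 1.68 and 127 CPM in the Tig1P155A libraries of 3 dpe. It stood at 93.1, 281 and 343 CPM in the control, 282, 23.2 and 72.3 CPM in the Tig1 and 76, 65.2 and 35.7 CPM in the Tig1P155A libraries of 8 dpe. Tig1P155A replicate 3 at 3 dpe was above every control of that time in both chains. The average log2 fold changes, −1.44 (SE 0.70, adjusted p = 0.112) and −1.22 (SE 0.68, adjusted p = 0.167), were not called. Without Tig1P155A replicate 3 of 3 dpe they were −2.47 (adjusted p = 0.00143) and −2.37 (adjusted p = 0.000639). Without Tig1 replicate 1 of 8 dpe the change of COL9A3.L was −1.92 (adjusted p = 0.028), and that of COL9A2 is not given here. Both libraries were picked after their values were seen, which favours lower calls, so these p-values are no independent test.

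COL22A1 (AMEX60DD040583), the chain of type XXII collagen of muscle-tendon junctions, had a log2 change that averaged −0.24 (SE 0.81, adjusted p = 0.902). It was at 1.18, 1.25 and 0.569 CPM in control cells at 3 dpe, 0, 1.82 and 19.8 CPM with Tig1 and 0, 0 and 0.408 CPM with Tig1P155A. It stood at 8.55, 5.22 and 4.91 CPM in the control, 3.55, 1.38 and 19.1 CPM in the Tig1 and 0.344, 3.26 and 3.19 CPM in the Tig1P155A libraries of 8 dpe. Replicate 3 of Tig1 was above every control of its time at both times, and at 8 dpe it was 1 of the 2 libraries with the highest sum of muscle genes. The other of these, Tig1P155A replicate 1, held 0.344 CPM of COL22A1. At 3 dpe the muscle sum of Tig1 replicate 3 was 32.7 CPM, against 49.5 to 226.8 CPM in control. A link with muscle genes was not tested.

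Type VI collagen, which forms beaded filaments around cells, was lower in all 12 overexpressing libraries in 4 of its chains. COL6A1 (AMEX60DD055540, chromosome 9q from 392359786 to 392475682) was at 254, 299 and 332 CPM in control cells at 3 dpe, 89.7, 27.6 and 36.8 CPM with Tig1 and 43.9, 48.7 and 11.4 CPM with Tig1P155A. By 8 dpe the values were 759.9, 545 and 978 CPM in the control, 294, 168 and 135 CPM in the Tig1 and 262, 215 and 348 CPM in the Tig1P155A libraries. COL6A2 (AMEX60DD055538, chromosome 9q from 391559953 to 391656326) was at 250.1, 348 and 462 CPM in the control, 112, 60.2 and 46.5 CPM in the Tig1 and 64.2, 72.4 and 22.7 CPM in the Tig1P155A libraries of 3 dpe. It stood at 723, 719 and 1022 CPM in the control, 426, 197 and 197 CPM in the Tig1 and 338, 266 and 372 CPM in the Tig1P155A libraries of 8 dpe. These genes lie on the same strand of chromosome 9q with 703459 bp between them. Average log2 fold changes were −2.25 (SE 0.28, adjusted p = 3.31e-06) for COL6A1 and −1.98 (SE 0.25, adjusted p = 3.69e-06) for COL6A2. Within the groups the controls spread little for COL6A1 at 3 dpe, so that its lowest control, at 254 CPM, stood well above its highest overexpressing library, at 89.7 CPM.

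COL6A3 (AMEX60DD055459, chromosome 9q from 357696227 to 357964480) was at 112, 360 and 506 CPM in control cells at 3 dpe, 31.4, 108 and 46.4 CPM with Tig1 and 37.5, 52.4 and 40.8 CPM with Tig1P155A. It stood at 414, 535 and 879 CPM in the control, 322, 152 and 272 CPM in the Tig1 and 307, 138 and 129.5 CPM in the Tig1P155A libraries of 8 dpe. The margin was narrow at 3 dpe, where Tig1 replicate 2 nearly reached control replicate 1. COL6A6 (AMEX60DD022617, chromosome 2p from 1236566976 to 1237166523) was at 99.5, 159.7 and 214 CPM in the control, 54.1, 8.19 and 9.63 CPM in the Tig1 and 7.1, 21.4 and 3.52 CPM in the Tig1P155A libraries of 3 dpe. It stood at 388, 439 and 454 CPM in the control, 166, 99.8 and 127 CPM in the Tig1 and 79.8, 151 and 140.5 CPM in the Tig1P155A libraries of 8 dpe. Average log2 fold changes were −2.07 (SE 0.30, adjusted p = 2.45e-05) for COL6A3 and −2.52 (SE 0.36, adjusted p = 2e-05) for COL6A6. Both were called with each form at 3 dpe, and COL6A6 was called with neither at 8 dpe (adjusted p = 0.0945 with Tig1 and 0.0786 with Tig1P155A).

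At 8 dpe the calls of type VI chains were near the threshold. With Tig1, COL6A1 (−1.94, adjusted p = 0.0115) and COL6A2 (−1.59, adjusted p = 0.0188) were called, and both calls were lost without control replicate 3 (adjusted p = 0.0506 and 0.0775), Tig1 replicate 2 (0.0673 and 0.101) or Tig1 replicate 3 (0.0686 and 0.0979) of that time. With Tig1P155A, COL6A2 (−1.34, adjusted p = 0.0485) and COL6A3 (−1.67, adjusted p = 0.0454) were called. Leaving out any of 12 libraries ended the call of COL6A2 and any of 8 that of COL6A3, with the highest values without Tig1P155A replicate 2 for COL6A2 (0.186) and without control replicate 3 for COL6A3 (0.17).

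Type VIII collagen, a short-chain network collagen of vessel walls and of the cornea, had the lowest average log2 fold changes of the 25 chains of at least 4 CPM on average. COL8A1 (AMEX60DD048332, chromosome 7p from 858980236 to 859131376) was at 1.05, 4.39 and 9.18 CPM in control cells at 3 dpe, 0, 0.152 and 0.0845 CPM with Tig1 and 0.091, 1.1 and 0 CPM with Tig1P155A. The libraries of 8 dpe held 14.7, 28.3 and 43.7 CPM in the control, 35.8, 10.2 and 23.6 CPM in the Tig1 and 4.82, 5.1 and 9.3 CPM in the Tig1P155A libraries, where 2 Tig1 libraries lay inside the control range and the Tig1P155A libraries lay below it. At 3 dpe Tig1P155A replicate 2 lay just above the lowest control, and the other 5 overexpressing libraries lay below it. Over the group, the Tig1 libraries of 3 dpe held 2 counts against 400 in control, a ratio of 103 (95% interval 28.2 to 850, counting error only). Over the 4 comparisons its log2 change averaged −3.09 (SE 0.57, adjusted p = 0.000266). The call with Tig1P155A at 3 dpe (−3.50, adjusted p = 0.0127) was lost without control replicate 3 (0.052) or Tig1P155A replicate 1 (0.054) of that time. With Tig1 at 8 dpe the difference was −0.32 (adjusted p = 0.86), and 0.07 without control replicate 3.

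COL8A2 (AMEX60DD005922, chromosome 11q from 992171340 to 992703670) was at 1.41, 56.9 and 50.6 CPM in control cells at 3 dpe, 1.25, 6.52 and 5.58 CPM with Tig1 and 0.091, 1.34 and 0.306 CPM with Tig1P155A. It stood at 45.7, 99.1 and 138 CPM in the control, 32.2, 15.2 and 20.5 CPM in the Tig1 and 18.1, 18.5 and 15.9 CPM in the Tig1P155A libraries of 8 dpe. Control replicate 1 of 3 dpe lay among the Tig1 libraries of that time. At 8 dpe the groups did not overlap. Its log2 fold change averaged −3.35 (SE 0.51, adjusted p = 3.4e-05). The call with Tig1 at 3 dpe (−3.06, adjusted p = 0.0206) was lost without control replicate 2 (0.0586) or Tig1 replicate 3 (0.0515) of that time.

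Of the transmembrane collagens of at least 4 CPM on average, COL23A1 fell and COL17A1 stood out in a single library. COL23A1 (AMEX60DD029020) had means of 4.91 ± 1.81 CPM in control, 1.39 ± 1.2 CPM in Tig1 and 1 ± 0.447 CPM in Tig1P155A cells at 3 dpe and of 24.2 ± 12.7, 6.38 ± 2.32 and 7.29 ± 1.46 CPM at 8 dpe. All 12 overexpressing libraries lay below control, and the log2 change averaged −1.94 (SE 0.44, adjusted p = 0.00179). COL17A1 (AMEX60DD053027), the hemidesmosome collagen of basal epidermis, was at 138 CPM in Tig1 replicate 1 at 8 dpe and at 0 to 8.03 CPM in the other 17 libraries. The same library held 34.1 CPM of COL7A1 (AMEX60DD023361), the chain of the anchoring fibrils under the epidermis, against 0 to 5.60 CPM in the others. The average log2 fold change of COL17A1 was 0.04 (SE 1.95, adjusted p = 1), and −2.11 (adjusted p = 0.171) without that library. It turned to −0.06 with DESeq2 size factors and to −0.73 with library size alone. Of 7 tested epidermis genes 1 was called lower on average (KRT18) and 0 higher, shares below those of all genes (18.7% and 21.4%), and the summed level of the 9 matched genes reached 2148 CPM in this library against 42.6 to 930 CPM in the others.

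**Figure D4:**
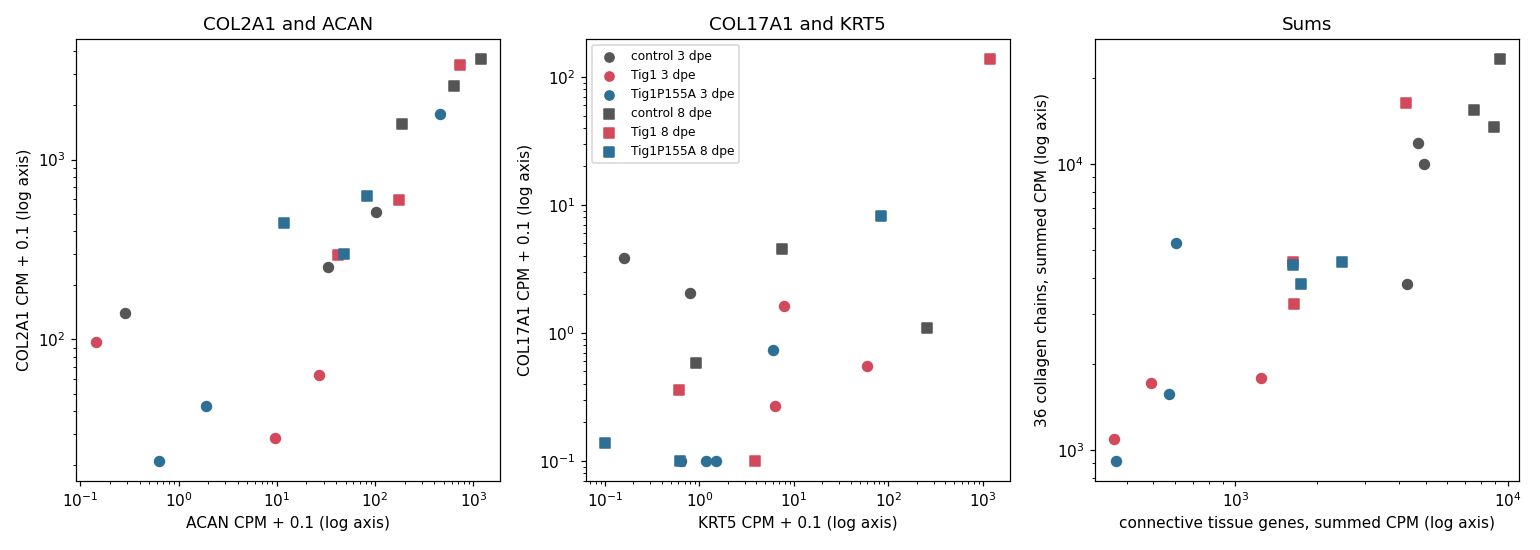
Each point is a library, on log axes of CPM, with 0.1 CPM added in the left and middle panels. COL2A1 is set against the cartilage gene ACAN, COL17A1 against the keratin KRT5, and the summed collagen chains against the summed connective tissue genes, and the Tig1 8 dpe library at 138 CPM of COL17A1 is the one at 1200 CPM of KRT5.

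The 11 chains of under 4 CPM on average were 2 models of COL7A1 and single models of COL5A3, COL27A1 (AMEX60DD050235), COL18A1 (AMEX60DD050963), COL14A1, COL19A1, COL20A1, COL6A6 (AMEX60DD022615), COL13A1 and COL25A1. On average 5 of them were called lower (COL5A3, COL7A1 AMEX60DD023361, COL19A1, COL13A1 and COL25A1), 1 higher and 5 not. Of all genes 18.7% were called lower and 21.4% higher, and the shares among genes of under 4 CPM are not given here. COL25A1 met the level rule through control libraries alone, which favours a lower call, and without it 23 of 35 chains, and 4 of the 10 others of under 4 CPM, were called lower. COL5A3 and COL27A1 (AMEX60DD050235) would also have missed the rule without control libraries, and both are still in these counts. COL5A3 reached 0.5 CPM in 1 control library of 3 dpe, 2 of 8 dpe and 2 Tig1P155A libraries of 8 dpe, so its lower call is favoured too. Several had 0 to 3 counts over a group at 3 dpe. COL19A1, a FACIT chain, had 197 counts in control libraries against 2 in the Tig1 and 1 in the Tig1P155A libraries, ratios of 50.5 (95% interval 13.8 to 420) and 125 (22.2 to 4960). COL7A1 (AMEX60DD023361) had 66 counts in control and 0 in Tig1 cells, at least 11.3-fold lower against 3 counts over the group. COL5A3 had 31 counts in control and 0 in Tig1P155A cells, at least 6.56-fold lower. Of the 36 chains, 24 reached 0.5 CPM (by library size alone) in at least 1 library of all 6 groups, and COL25A1 in the 2 groups of control cells only. The 31 rows below the level rule included 15 with no count, 10 of them among 11 rows named COL6A6.L, and all rows of COL5A1, COL21A1 and COL28A1.

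The collagen sum was also set beside the summed connective tissue genes that are no collagens. The ratio of the summed chains to those genes was 0.893 to 2.52 in control cells at 3 dpe, 1.45 to 3.49 with Tig1 and 2.52 to 8.80 with Tig1P155A. At 8 dpe it was 1.51 to 2.49, 1.97 to 3.85 and 1.84 to 2.72. Ranges of overexpressing and control libraries overlapped in all 4 comparisons, though with Tig1P155A at 3 dpe only between 2.521 and 2.525. Median ratios were 2.04 in control, 3.05 in Tig1 and 2.78 in Tig1P155A cells at 3 dpe, and 2.05, 2.78 and 2.18 at 8 dpe. Each overexpressing median was thus above that of control, a difference that was not tested. The ratio of 8.80 belonged to the Tig1P155A library of 3 dpe that stood high in cartilage genes. For the basement membrane chains the ratio was 0.0138 to 0.0301 in control, 0.0178 to 0.0458 in Tig1 and 0.0159 to 0.0359 in Tig1P155A cells at 3 dpe. At 8 dpe these ratios were 0.0226 to 0.0356, 0.031 to 0.0573 and 0.02 to 0.073. FSTL1, the most strongly counted gene of that list, had a log2 change that averaged −2.72 (SE 0.28, adjusted p = 3.65e-07).

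The Tig1 forms were compared with each other on average over both times. Of 36 chains 0 were called by edgeR (0% of all genes were called) and 0 by DESeq2, while 4 had an unadjusted p under 0.05, for which the share of all genes is not given here. Over the 25 chains of at least 4 CPM on average the log2 difference of Tig1 minus Tig1P155A ranged from −0.87 to 3.67 with a median of 0.39, and its standard error ranged from 0.30 to 1.64 with a median of 0.45. Differences were 0.10 (SE 0.32) for COL3A1, 0.11 (SE 0.30) for COL6A2 and 0.39 (SE 0.32) for COL12A1. Differences as large as 1.02 (SE 0.45) for COL4A2 or 1.58 (SE 0.64) for COL8A2 did not pass the test. These p-values do not show that the forms act alike.

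The median change of the chains between 3 and 8 dpe was above 0 in all 3 kinds of cells, and few single chains passed the test. In control cells 0 of 36 chains were called by edgeR (0.154% of all genes were called lower and 0.268% higher), an unadjusted p under 0.05 was reached by 13, and DESeq2 called 1 higher. The median log2 change was 1.37 over the chains and 0.03 over all genes. In Tig1 cells 1 chain, COL8A1, was called higher and 0 lower (0.0433% and 0.00788% of all genes). There 27 were at an unadjusted p under 0.05, 20 were called higher by DESeq2 and the median was 2.35 (0.06 over all genes). In Tig1P155A cells 6 chains were called higher and 0 lower (1.17% and 0.201% of all genes). There 19 were at an unadjusted p under 0.05, 16 were called higher by DESeq2 and the median was 2.14 (0.07 over all genes). Shares of all genes at an unadjusted p under 0.05 and by DESeq2 are not given here, so those counts have no background beside them.

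The 6 chains called in Tig1P155A cells belonged to types IV, VI and VIII. They were COL4A1 at 4.72 (SE 0.94, adjusted p = 0.0186), COL4A2 at 3.06 (SE 0.68, adjusted p = 0.0326), COL6A1 at 2.99 (SE 0.51, adjusted p = 0.00864), COL6A2 at 2.62 (SE 0.45, adjusted p = 0.00864), COL6A6 (AMEX60DD022617) at 3.53 (SE 0.68, adjusted p = 0.0167) and COL8A2 at 4.80 (SE 1.02, adjusted p = 0.0259). The count fell to 2 without Tig1P155A replicate 1 or replicate 3 of 3 dpe and to 3 without Tig1P155A replicate 1 of 8 dpe. In Tig1 cells the change of COL8A1 rested on 2 counts at 3 dpe and was called with an adjusted p of 0.0281. That count was 0 without Tig1 replicate 2 or 3 of 3 dpe, without Tig1 replicate 1 or 3 of 8 dpe or without control replicate 2 of 8 dpe. It was 7 without Tig1 replicate 1 and 8 without Tig1P155A replicate 3 of 3 dpe, and 2 without Tig1P155A replicate 1 or 2 of 3 dpe or Tig1 replicate 2 of 8 dpe.

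**Figure D5:**
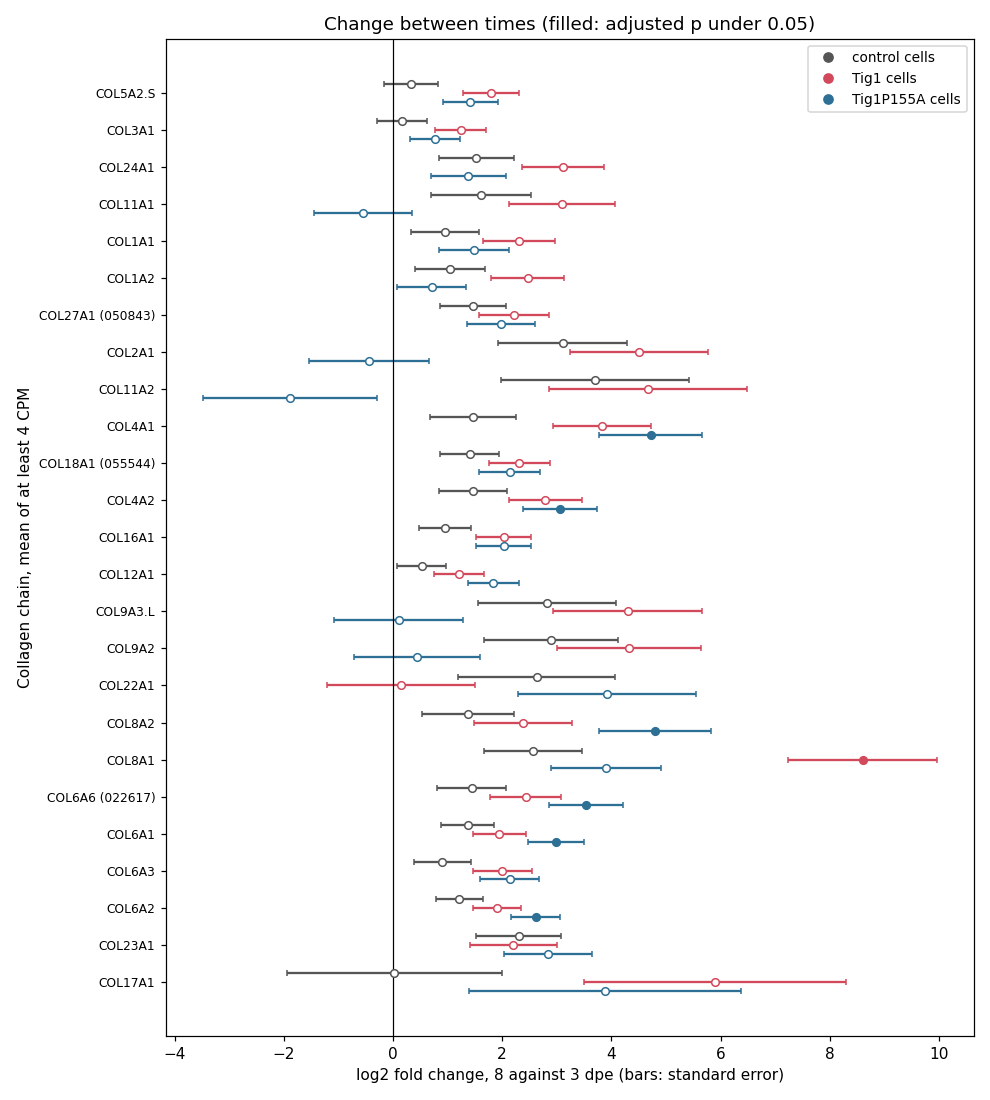
Log2 fold change between 8 and 3 dpe (bars, standard error) of the 25 chains of at least 4 CPM on average in control, Tig1 and Tig1P155A cells, filled where the adjusted p was under 0.05. The filled points are COL8A1 in Tig1 cells and COL4A1, COL4A2, COL6A1, COL6A2, COL6A6 and COL8A2 in Tig1P155A cells, and no control point is filled.

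COL2A1 changed by 3.10 (SE 1.19) on the log2 scale in control, 4.50 (SE 1.27) in Tig1 and −0.44 (SE 1.10) in Tig1P155A cells, none of them called, and the Tig1P155A value includes the library high in cartilage genes at 3 dpe. How far the overexpression effect at 8 dpe differed from that at 3 dpe was tested as well. It was called for 0 of 36 chains by edgeR (0.122% of all genes were called lower and 0.0197% higher) and for 0 by DESeq2. An unadjusted p under 0.05 was reached by 4 chains, for which the share of all genes is not given here. The median of this difference over the chains was 1.02 and over all genes 0.14. More chains were called at 3 than at 8 dpe, but the difference of the effects did not pass for any of them.

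Genes that make and crosslink collagen were mostly lower on average. Of 28 tested genes of this list, 20 were called lower on average, 0 higher and 8 not (18.7% of all genes were called lower and 21.4% higher), with a median log2 fold change of −1.68. PPIB, a prolyl isomerase of the endoplasmic reticulum and the gene of this list with the highest level, had −0.65 (SE 0.16, adjusted p = 0.0028) and lay below control in 12 of 12 libraries. SERPINH1, the collagen chaperone HSP47, had a log2 change that averaged −2.41 (SE 0.24, adjusted p = 2.59e-07) and lay below control in 12 of 12 libraries. FKBP10, a prolyl isomerase that acts on procollagen, had −2.15 (SE 0.24, adjusted p = 1.01e-06), and the procollagen proteinase BMP1 had −2.33 (SE 0.23, adjusted p = 2.09e-07). P4HA1, the catalytic subunit of prolyl 4-hydroxylase, had −1.70 (SE 0.27, adjusted p = 5.09e-05). Its partner P4HB, a protein disulfide isomerase used by all secreting cells, was at 288, 328 and 262 CPM in the 3 dpe control libraries and 455, 308 and 348 CPM in the Tig1 ones, with an average of 0.24 (SE 0.15, adjusted p = 0.213). LOX, a lysyl oxidase, had −0.11 (SE 0.37, adjusted p = 0.899) and was not called, while its relative LOXL1 had −2.30 (SE 0.29, adjusted p = 3.55e-06).

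Of 8 tested collagen receptor genes, 5 were called lower on average and 1 higher (18.7% and 21.4% of all genes), with a median log2 fold change of −2.08. DDR2, a receptor tyrosine kinase for fibrillar collagen, had a log2 change that averaged −2.38 (SE 0.27, adjusted p = 1.17e-06) and MRC2, which takes up collagen fragments, −2.36 (SE 0.32, adjusted p = 8.64e-06), both lower in 12 of 12 libraries. ITGB1, the integrin chain shared by collagen-binding integrins, had −0.68 (SE 0.23, adjusted p = 0.0265). ITGA2 and ITGA11 were also lower on average, at −2.12 and −2.04. At 8 dpe ITGA2 was at 8.52, 10 and 9.45 CPM in control, 41.1, 2.22 and 3.46 CPM with Tig1 and 20.8, 9.63 and 5.03 CPM with Tig1P155A. Thus 2 overexpressing libraries lay above every control, and 1 of them, Tig1 replicate 1, was the library high in KRT5. ITGA1, which pairs with ITGB1, went against the list on average at 2.85 (SE 0.69, adjusted p = 0.0029), with 1.32, 0.349 and 0 CPM in the control libraries of 3 dpe and 7.09, 24.6 and 3.55 CPM in the Tig1 ones. At 8 dpe it was at 0.459, 4.12 and 3.99 CPM in control, 10.9, 2.81 and 12 CPM with Tig1 and 6.99, 7.52 and 4.03 CPM with Tig1P155A. With either form 0 of the 8 receptor genes were called higher at 8 dpe (10.6% of all genes).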

How the data were processed

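RNA was measured by Smart-seq2 in 18 libraries of 300 sorted cells. The deposited table holds whole-number counts per gene model, which the authors made with bcl2fastq 2.19.1, STAR 2.7.6a on the axolotl assembly AmexG_v6.0-DD, and featureCounts 2.0.1. Whether counting used strand is not given in the sources used here. Full-length cDNA without molecular identifiers counts amplified reads, so intervals and floors cover counting error only. Columns were matched to samples by title.

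The 92 spike-in (ERCC) rows held 0 counts in every library. From the counts, 25377 genes that reached 0.5 CPM in 1 library or more entered edgeR 4.0.16 (R 4.3.3) with TMM scaling, library sizes summed over the kept rows, 6 group means and 12 residual degrees of freedom. Quasi-likelihood tests of 10 comparisons were adjusted by Benjamini-Hochberg over all genes and called under 0.05. Standard errors were taken as the log2 fold change divided by the square root of its F statistic. CPM values are on the TMM scale, except in the CPM rules for collagen chains and for tested genes, which used library size alone. They were not corrected for gene length. The average comparison weights the 4 comparisons with control equally. The code was tested on simulated data. DESeq2 1.42.0, other scalings and filters, a stricter threshold, a replicate block and leaving out libraries were alternatives.

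Every collagen chain was accounted for. Chains of at least 4 CPM on average were described with values, given for every library at 20 CPM or more, for COL3A1 and COL8A1 and for some others, and the rest by counts and ranges. Of the other lists, some with high levels and some moving against their list were named, and further genes named with values were chosen after their values were seen. The chains and the lists were chosen with earlier results of these data known, so their counts are a description. No pairing of libraries by replicate number was seen in the counts, and whether the design paired them is not stated in the sources used here. Figures were drawn with matplotlib 3.10.9. Sequences were not used here. The result of 1 marker list is not reported here.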

Additional observations from a re-analysis of the deposited data

How the results depend on the processing

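In the average over the 4 comparisons with control, 19 chains of at least 4 CPM kept their call under all 27 alternatives at an adjusted p under 0.05. The stricter threshold is not among these 27. Counts of called chains (25 on average, 18, 18, 4 and 7 in the single comparisons with control, 0 between forms, 0, 1 and 6 between times in control, Tig1 and Tig1P155A cells, 0 for the difference of effects) moved by more than 1.5 times in these cases. At an adjusted p under 0.001 they were 14 on average, 3 and 10 at 3 dpe, 0 and 0 at 8 dpe, and 0 and 0 between times in Tig1 and Tig1P155A cells. With every gene of at least 1 count they were 13 and 20 at 8 dpe, 6 between forms, 13, 25 and 20 between times and 7 for the difference of effects. With DESeq2 they were 9 and 16 at 8 dpe and 1, 20 and 16 between times. With the libraries of the compared groups alone they were 8 and 20 at 8 dpe, and 2 and 3 between times in control and Tig1P155A cells. Library size alone gave 8 with Tig1 at 8 dpe, and leaving out mitochondrial genes gave 11 with Tig1P155A at 8 dpe and 2 between times in Tig1 cells. Of the alternatives chosen after seeing the data, leaving out the libraries that stood apart gave 11 and 13 at 8 dpe and 1 between times in control cells, and leaving out 3 libraries with a TMM factor under 0.7 gave 0 and 0 between times in Tig1 and Tig1P155A cells. Leaving out each library in turn gave 12 to 21 and 14 to 20 at 3 dpe, 0 to 7 and 4 to 10 at 8 dpe, 22 to 28 on average, 0 between forms, 0, 0 to 8 and 2 to 9 between times, and 0 for the difference of effects. The cause was not tested. Shares of all genes called under these alternatives are not given, here or above. The counts of chains under the alternatives thus have no background beside them.

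Of called genes on average, 46.7% were lower with TMM, 51.7% with DESeq2 size factors, 68.5% with library size alone and 56.0% with mitochondrial genes left out. The short COL18A1 model was not called higher with library size alone or without the 3 libraries of low TMM factor. Samples sharing a replicate number had residual correlations of −0.25 to 0.20, so no pairing by number was seen in the counts. With 3 libraries in a group this cannot show that they were not paired in the design. With the replicate block the counts were 15 and 15 at 3 dpe, 6 and 5 at 8 dpe, 23 on average, 0 between forms, 0, 1 and 6 between times and 0 for the difference of effects.

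Signs turned for chains that were not called. COL22A1 was at 0.13 on average without the 3 libraries of low TMM factor. COL17A1 was at −0.0554 on average with DESeq2 size factors, −0.73 with library size alone, −0.16 without mitochondrial genes, −0.0115 with at least 1 CPM in 3 libraries, −3.02 with the replicate block, −1.96 without the libraries that stood apart, −2.74 without the 3 of low TMM factor, and −2.11 to 0.74 over libraries left out in turn. With Tig1P155A at 3 dpe, leaving out the libraries that stood apart gave −3.24 for COL2A1, −5.53 for COL11A2, −4.17 for COL9A2 and −4.00 for COL9A3.L, and leaving out each library in turn gave −3.24 to 1.59, −5.54 to 3.42, −4.17 to 1.19 and −4.00 to 0.86, with the low end always without Tig1P155A replicate 3. There COL9A2 was at −0.0891 with library size alone and −0.11 with the block. COL9A3.L was at −0.0130 with DESeq2 size factors, −0.0138 with DESeq2, −0.41 with library size alone, −0.11 without mitochondrial genes and −0.27 with the block. COL11A1 was at 0.21 without the 3 of low TMM factor and at −3.27 to 0.18 over libraries left out in turn. COL8A1 with Tig1 at 8 dpe was at 0.0215 with the block and at −0.78 to 0.0721 over libraries left out in turn. A count of 0 allows up to 0.455 CPM in the library with the highest such limit, which limits what can be said of the 11 chains of under 4 CPM.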

Other observations

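Pairs of chains, of the same or of different collagens, were set against each other as ratios of CPM, which are not corrected for gene length and so show only how the ratio varied between libraries. The ratio of COL1A1 to COL1A2, the chains of type I collagen, was 0.811 to 0.962 in control libraries of 3 dpe and 0.678 to 0.999 in those of 8 dpe. In the overexpressing libraries it was 0.343 to 1.35, and the lowest value was that of Tig1P155A replicate 3 at 3 dpe. The ratio of COL6A1 to COL6A2 ranged from 0.458 to 1.05 over all 18 libraries with a median of 0.783. The ratio of COL8A1 to COL8A2, the chains of type VIII collagen, was 0.286 to 0.322 in control and 0.670 to 1.15 in Tig1 libraries of 8 dpe, with no overlap, and 0.266 to 0.585 in Tig1P155A libraries. At 3 dpe, where the Tig1 libraries held 2 counts of COL8A1, it was 0.0771 to 0.742 in control, 0 to 0.0233 in Tig1 and 0 to 1 in Tig1P155A libraries. The ratio of COL5A2.S (type V) to COL3A1 ranged from 0.0537 to 0.377 with a median of 0.268, again lowest in Tig1P155A replicate 3 at 3 dpe. The ratio of COL2A1, the cartilage fibril chain, to COL1A2 ranged from 0.0948 to 2.74. These ratios were not tested.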
